A study of Mus musculus with 48 samples.

Results

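The livers described here came from female hCYP2B6-Tg mice given a low dose of perfluorooctanesulfonic acid (PFOS), and they were chosen by their sample labels: 4 females at 1 mg/kg/day (1-PFOS) and 4 untreated females at 0 mg/kg/day, so 8 of the 48 livers of the study. The study treated male and female mice of a pair of genotypes by oral gavage for 21 days, at PFOS doses of 0, 1 and 10 mg/kg/day, and sequenced the polyadenylated RNA of each liver. All 8 mice were on a C57Bl/6J background, were 10 to 12 weeks old, ate normal chow and lacked the mouse genes Cyp2b9, Cyp2b10 and Cyp2b13, which had been deleted with Crispr/Cas9. Both groups also carried the human CYP2B6/2A13/2F1 transgene, brought in by breeding, and by their labels they differed only in the dose. The comparison asked which of the 13193 genes tested in female livers changed at the lower PFOS dose in livers that carry this transgene and lack those mouse Cyp2b genes. Cyp2b-null females, which lack the same 3 genes and carry no human transgene, and hCYP2B6-Tg males at the same doses serve for comparison. Differences from them were tested gene by gene, while medians over several genes are set beside theirs without a test.

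PFOS is a persistent fluorinated surfactant with a fatty acid-like tail that collects in the liver. In rodents it activates nuclear receptors that bind DNA as partners of the retinoid X receptor. PPARα switches on the genes that burn fatty acids in peroxisomes and mitochondria together with the Cyp4a fatty acid hydroxylases, whereas the constitutive androstane receptor (CAR) and the pregnane X receptor (PXR) switch on P450 genes of the Cyp2b, Cyp2c and Cyp3a families and the enzymes and transporters that conjugate and export foreign compounds.

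The 8 libraries held 46705540 to 57972790 counts at 1-PFOS and 47241383 to 58804802 counts in untreated mice. The 10 genes with the most counts took 16.7 to 19.5% of each 1-PFOS library, against 19.8 to 22.6% of each untreated library, so that the groups did not overlap in this share. Hepatocyte markers had summed levels of 110062 to 151495 CPM in 1-PFOS livers, against 134799 to 175224 CPM in untreated livers (CPM, counts scaled to the size of each library). Of 14 hepatocyte markers 1 was called (adjusted p below 0.05) by edgeR's quasi-likelihood test, Ahsg, which fell, while 9 were lower and 1 was higher at an unadjusted p below 0.05 (median log2 fold change -0.32). Markers of Kupffer cells, endothelium, stellate cells, bile duct, T and NK cells, B cells, neutrophils, pancreas and adipose tissue had no member called by that test, while DESeq2 called 1 Kupffer cell and 1 bile duct marker lower and 1 neutrophil marker higher. At an unadjusted p below 0.05, 4 of 14 Kupffer cell, 2 of 5 bile duct and 1 of 2 pancreas markers were lower and 1 of 3 neutrophil markers was higher. Krt7 and Krt19 of the bile duct and Cd3e of T cells were under the filter on low counts. Of 5 tested red cell markers only Alas2 was called, and it rose, with the call lost in a fit of the 8 livers alone. In whole liver, fewer cells of a type and less RNA per cell cannot be told apart. Each p-value measures only the spread between mice. That spread was estimated over all 24 female libraries, or all 48 where males are included, unless a fit of fewer libraries is named.

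Reads were assigned to the deleted genes in both groups. Cyp2b9 had 272, 428, 576 and 344 counts in 1-PFOS livers, against 74, 54, 54 and 72 counts in untreated livers. Cyp2b10 had 182, 176, 302 and 160 counts in 1-PFOS livers, against 18, 24, 26 and 22 counts in untreated livers. Both genes were thus low, but separated by dose (log2 fold change 2.73 ± 0.42 (SE), adjusted p = 4.1e-04 and log2 fold change 3.25 ± 0.39 (SE), adjusted p = 1.7e-05), and all 5 Cyp2b genes in the table rose. The median log2 fold change of these 5 genes was 3.59, against 1.99 in Cyp2b-null females, which carry no human transgene, and 2.83 in hCYP2B6-Tg males. Differences between these medians were not tested. The source of the reads assigned to deleted genes was not tested. The table has no line for human CYP2B6, so the genotype could not be checked from these counts. Clock genes differed between mice within both groups. Dbp, which peaks by day, had 48.96, 6.63, 36.2 and 65.2 CPM in 1-PFOS livers, against 10.8, 22.4, 50.1 and 90.6 CPM in untreated livers. Arntl, which peaks at night, had 4.35, 8.704, 1.16 and 4.41 CPM in 1-PFOS livers, against 14.99, 7.05, 3.33 and 2.49 CPM in untreated livers. Neither these nor any other of the 17 clock genes was called by edgeR's quasi-likelihood test or by DESeq2, and none had an unadjusted p below 0.05. The 12 clock genes that peak by day or dusk had a median log2 fold change of 0.11, against 0.99 in Cyp2b-null females and 1.33 in hCYP2B6-Tg males. For the 5 that peak at night or dawn it was -0.35, against -1.11 and -1.48. The part of this in the comparisons with those mice was not tested. No source used here gives the hour at which each mouse was killed.

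At 1-PFOS 73 genes rose past both of the limits that the study set, a log2 fold change above 1 and an adjusted p below 0.05, here with edgeR's quasi-likelihood test and Benjamini-Hochberg adjustment, which is 0.553% of the 13193 genes tested, and 23 genes (0.174%) fell past both. With the adjusted p alone, 223 genes (1.69%) rose and 77 genes (0.584%) fell. This second rule is used for every gene and list named below, and "called" means an adjusted p below 0.05. Counts of list members at an unadjusted p below 0.05 stand without the share of all tested genes under that limit. How far such counts exceed that share cannot be judged here. The median log2 fold change was 0.71 over the genes that rose and -0.74 over those that fell, against -0.02 over all tested genes. In 195 of the 223 genes that rose and 64 of the 77 that fell, the 4 treated mice did not overlap with the 4 untreated mice. The fold changes behind these calls come from the same 8 mice, with the spread estimated over all 24 female libraries. The separation therefore adds no separate evidence for the calls. The share of all tested genes without overlap is not given here. Predicted genes made up 13 of the rises and 15 of the falls, and 28 of the rises had a mean below 5 CPM even in the treated group. Single mice mattered: 97 of the 223 rises and 18 of the 77 falls were called in each of the 8 fits that left out 1 mouse. Without 1-PFOS replicate 3 only 103 genes rose and 22 fell, whereas 339 rose and 155 fell without 1-PFOS replicate 1. DESeq2 on all 24 female libraries called 432 rises and 176 falls. A fit of only these 8 livers called 58 rises and 25 falls, of which 54 rises and 13 falls were among the 223 and 77. Its rises held 7 Cyp4a, 5 Cyp3a, 4 Cyp2c, 3 Cyp2b, 5 peroxisomal and 1 mitochondrial gene of the lists described below.

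**Figure D1:**
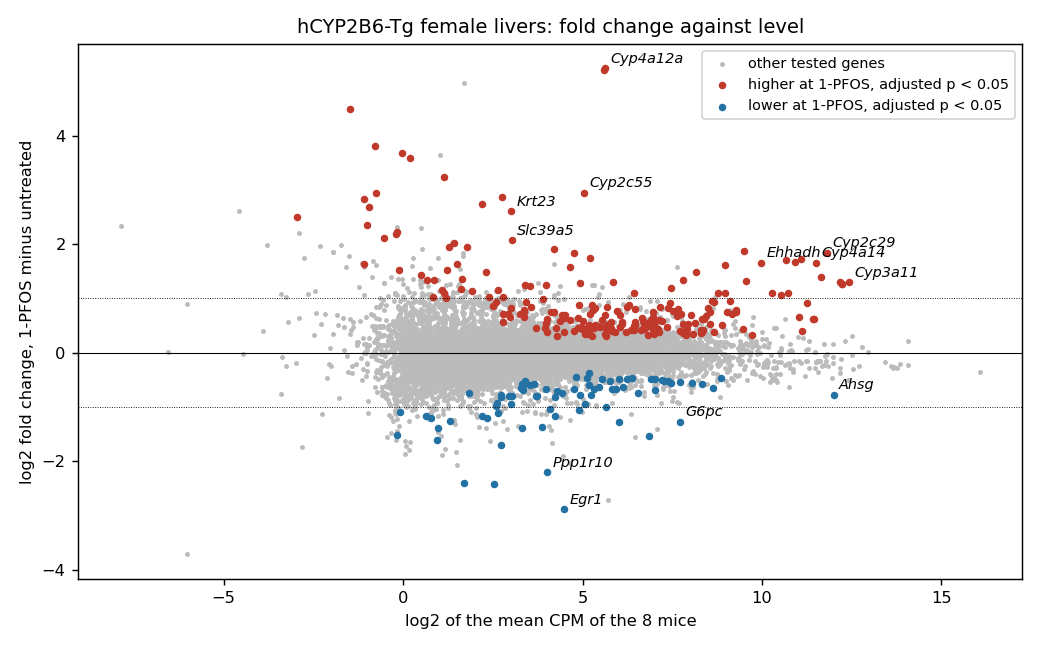
Log2 fold change (1-PFOS minus untreated, vertical axis) against the log2 of the mean CPM of the 8 mice (horizontal axis) for the 13193 tested genes, with the 223 called rises in red, the 77 called falls in blue and dotted lines at a log2 fold change of 1 and -1. Cyp4a12a and its copy have the highest log2 fold changes of the called genes, while highly expressed P450 genes such as Cyp2c29 and Cyp3a11 lie at log2 fold changes of 1.84 and 1.30 on the right.

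The Cyp4a family, whose enzymes hydroxylate the far end of fatty acids, rose as a whole: all 7 tested members of 8 listed were called, with a median log2 fold change of 1.73 against -0.02 over all genes, and all 7 were called in each fit without 1 mouse. Cyp4a12a, which in mice is much more abundant in male liver, had 78.8, 139, 109 and 57.1 CPM in 1-PFOS livers, against 2.28, 3.68, 2.998 and 1.16 CPM in untreated livers. Every 1-PFOS mouse was far above every untreated mouse (log2 fold change 5.25 ± 0.33 (SE), adjusted p = 3.3e-10). Its copy Cyp4a12b had nearly the same counts, those of Cyp4a12a being 0.965 to 1.03 times as many per library, so reads may be shared by this pair and each value is uncertain. The classical PPARα target Cyp4a10 had 2849, 3352, 4242 and 3025 CPM in 1-PFOS livers, against 660.3, 1439, 1119 and 835 CPM in untreated livers. Cyp4a14, another such target, had 3618, 5024, 4982 and 3911 CPM in 1-PFOS livers, against 781, 2263, 1378 and 1139 CPM in untreated livers. In both genes untreated replicate 1 was lowest and untreated replicate 2 highest of the untreated mice, and the groups did not overlap (log2 fold change 1.73 ± 0.18 (SE), adjusted p = 2.0e-06 for Cyp4a10, and log2 fold change 1.66 ± 0.22 (SE), adjusted p = 5.7e-05 for Cyp4a14). The remaining members Cyp4a30b, Cyp4a31 and Cyp4a32 rose by log2 fold changes of 1.84, 1.70 and 1.67. Cyp4a31 and Cyp4a32 are close copies of Cyp4a10, and their values are uncertain in the same way. The related Cyp4f and Cyp4v hydroxylases had none of 7 members called (1 at an unadjusted p below 0.05, and none by DESeq2), with a median of 0.01.

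Fatty acid oxidation genes rose in both organelles and none fell. In peroxisomes, where long chains are shortened, 11 of 30 genes rose (median 0.33). Ehhadh, the bifunctional enzyme of the pathway, had 1239, 1405, 2016 and 1409 CPM in 1-PFOS livers, against 315, 598, 526 and 479.5 CPM in untreated livers (log2 fold change 1.66 ± 0.20 (SE), adjusted p = 1.6e-05). Its groups did not overlap, and 1-PFOS replicate 3 was highest. Other enzymes of the same spiral also rose, among them Hsd17b4 (0.68 ± 0.10) and the thiolase Acaa1a (1.06 ± 0.19). In mitochondria 11 of 19 genes rose (median 0.39). Cpt2, which releases fatty acids from carnitine inside the organelle, averaged 168 ± 20.5 CPM in 1-PFOS livers and 110.3 ± 8.52 CPM in untreated livers (SD, n = 4 each), and its log2 fold change was 0.61 ± 0.11 (adjusted p = 0.00439). The trifunctional protein subunit Hadhb rose by 0.53 ± 0.11, and Acadl and Decr1 rose by 0.52 and 0.77. Cpt1a, the gate of entry into mitochondria, was not called, at 446, 360.1, 444 and 390.2 CPM in 1-PFOS livers and 322, 447, 491 and 473 CPM in untreated livers. Of 4 ketone synthesis genes none was called by edgeR's quasi-likelihood test, 2 were higher at an unadjusted p below 0.05 and DESeq2 called 1 higher (median 0.28). Both counts depended on single mice, since over the fits without 1 mouse 6 to 13 peroxisomal and 3 to 11 mitochondrial genes were called, in each case fewest without 1-PFOS replicate 3. Leaving out 1 mouse ended the call of Hadhb (without 1-PFOS replicate 3, adjusted p up to 0.0683), and the fit of the 8 livers alone did not call Acaa1a, Cpt2, Acadl or Hadhb.

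Genes for handling fatty acids around these pathways moved in smaller numbers. Of 12 acyl-CoA thioesterases, which split coenzyme A from fatty acids, Acot1 and Acot2 rose. Acot1 had 421, 202, 300.2 and 339.8 CPM in 1-PFOS livers, against 73.6, 205, 99.4 and 123 CPM in untreated livers, and 1-PFOS replicate 2 lay within the untreated range (log2 fold change 1.34 ± 0.27 (SE), adjusted p = 0.00671). Acot2, a neighbour of nearly the same sequence, rose by 1.18 ± 0.29, although its groups overlapped too. Cd36, a fatty acid carrier of the cell surface, was the single member called of 18 uptake and binding genes and had 193, 198, 330.0 and 174 CPM in 1-PFOS livers, against 98.2, 136, 124 and 118 CPM in untreated livers. Of 16 tested lipid droplet genes, Cidec, Fitm1 and Hsd17b11 rose. Cidec, which enlarges droplets by fusing them, had only 3.18, 3.34, 4.85 and 4.14 CPM in 1-PFOS livers, against 0.2899, 1.15, 1.19 and 1.33 CPM in untreated livers (log2 fold change 1.95 ± 0.39 (SE), adjusted p = 0.006295). Mogat1, which joins a fatty acid to monoacylglycerol, was the single member called of 26 synthesis genes, and had 0.933, 0.544, 0.756 and 1.14 CPM in 1-PFOS livers, against 0.0414, 0.405, 0.123 and 0.0663 CPM in untreated livers (log2 fold change 2.36 ± 0.47 (SE), adjusted p = 0.00653). Fatty acid synthase, Fasn, had a log2 fold change of 0.03 (adjusted p = 0.99), and the 25 cholesterol synthesis genes had none called, also none at an unadjusted p below 0.05 or by DESeq2. Leaving out 1 mouse ended the call of Acot2 (without 1-PFOS replicates 1, 3 or 4 or untreated replicates 1, 3 or 4, adjusted p up to 0.10) and Cd36 (without 1-PFOS replicate 3, adjusted p up to 0.0837), and the fit of the 8 livers alone did not call Acot1, Acot2, Hsd17b11 or Cd36.

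Many Cyp2c, Cyp3a and Cyp2b P450 genes, which oxidise drugs, steroids and other lipids, rose too. To show the DNA beside which these genes start, the promoters of the leading member with a window in each of 4 families are given, as windows of 300 bases that span the RefSeq start on build GRCm38.p6, each on the strand of its gene. Capitals mark AGGTCA or its reverse complement TGACCT, the 6 letters that many partners of the retinoid X receptor read as an arm of their sites. Cyp4a12a and Cyp4a12b had no window in that table.
Cyp4a32 (chr4:115600688-115600987, plus strand): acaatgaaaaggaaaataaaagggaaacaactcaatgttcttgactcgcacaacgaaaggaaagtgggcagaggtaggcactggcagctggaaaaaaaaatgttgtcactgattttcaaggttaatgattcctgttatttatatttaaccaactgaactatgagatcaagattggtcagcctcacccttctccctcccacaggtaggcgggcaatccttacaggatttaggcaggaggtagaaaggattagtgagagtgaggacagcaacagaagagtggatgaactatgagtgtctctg
Ehhadh (chr16:21787785-21788084, minus strand): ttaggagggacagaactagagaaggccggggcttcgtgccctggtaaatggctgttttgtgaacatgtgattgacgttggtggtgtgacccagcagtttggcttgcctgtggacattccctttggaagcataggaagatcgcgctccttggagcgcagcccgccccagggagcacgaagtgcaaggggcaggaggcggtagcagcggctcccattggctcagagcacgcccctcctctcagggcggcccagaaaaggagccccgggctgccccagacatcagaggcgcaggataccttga
Cyp2c29 (chr19:39286835-39287134, plus strand): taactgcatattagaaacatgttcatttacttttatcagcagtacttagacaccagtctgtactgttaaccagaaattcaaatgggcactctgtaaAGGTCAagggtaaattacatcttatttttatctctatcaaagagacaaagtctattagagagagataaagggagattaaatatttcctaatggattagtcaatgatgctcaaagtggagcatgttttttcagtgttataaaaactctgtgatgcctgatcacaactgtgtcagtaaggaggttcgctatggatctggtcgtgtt
Cyp3a11 (chr5:145879805-145880104, minus strand): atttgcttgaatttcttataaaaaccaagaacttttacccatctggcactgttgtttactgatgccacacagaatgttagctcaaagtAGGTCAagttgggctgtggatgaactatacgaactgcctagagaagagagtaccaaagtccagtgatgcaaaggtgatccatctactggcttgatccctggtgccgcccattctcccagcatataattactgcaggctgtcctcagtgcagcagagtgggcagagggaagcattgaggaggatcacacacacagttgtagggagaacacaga
The windows of Cyp2c29 and Cyp3a11 held the letters once each, and those of Cyp4a32 and Ehhadh did not. Among members that rose, 5 of 8 Cyp3a genes and 2 of 6 Cyp2c genes with a window held them, against 0 of 2 Cyp4a and 0 of 8 peroxisomal genes. Over all called rises, 45 of 223 windows of 179 genes held the letters (20.2%), against 16.3% of all 32851 windows in the table. A match in letters is a description and not a binding site, and sites further from the start were not searched.

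Of 14 tested Cyp2c genes 7 rose (median 0.64). Cyp2c55, which in mice is induced through CAR and PXR, had 44.4, 67.9, 85.8 and 33.3 CPM in 1-PFOS livers, against 6.63, 6.84, 9.45 and 6.93 CPM in untreated livers. Every treated mouse lay far above every untreated mouse (log2 fold change 2.95 ± 0.27 (SE), adjusted p = 3.9e-07). Cyp2c29, a main hepatic member that makes epoxides of polyunsaturated fatty acids, had 5592, 6132, 6597 and 4318 CPM in 1-PFOS livers, against 1607, 1799, 1357 and 1541 CPM in untreated livers. The mice of each group lay close together compared with the gap (log2 fold change 1.84 ± 0.13 (SE), adjusted p = 2.9e-09). Cyp2c39 had 942, 1511, 1434 and 706 CPM in 1-PFOS livers, against 337, 318, 292 and 300.3 CPM in untreated livers (log2 fold change 1.88 ± 0.17 (SE), adjusted p = 3.9e-07). Its copy Cyp2c38 behaved alike (1.61), while Cyp2c37, Cyp2c50 and Cyp2c54, which share most of their sequence, rose less, by 0.62, 0.62 and 0.66. The pseudogene Cyp2c53-ps had 6.46, 19.3, 17.03 and 4.78 CPM in 1-PFOS livers, against 1.61, 2.43, 1.397 and 1.06 CPM in untreated livers (log2 fold change 2.86 ± 0.34 (SE), adjusted p = 1.6e-05). In the genes from Cyp2c39 to this pseudogene, 1-PFOS replicates 2 and 3 were the highest treated mice. The female-biased Cyp2c40, Cyp2c67, Cyp2c68 and Cyp2c69 had negative log2 fold changes and were not called. Cyp2c40 had 1097, 1065, 937 and 1050.2 CPM in 1-PFOS livers, against 2269.9, 1204, 1218 and 1107 CPM in untreated livers, so that untreated replicate 1 alone stood above the other 7 mice (adjusted p = 0.20). Cyp2c70, which makes muricholic acids in mice, was not called either (log2 fold change -0.65 ± 0.23 (SE), adjusted p = 0.13).

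In the Cyp3a family, the main target of PXR, 8 of 9 genes rose (median 1.26). Cyp3a11, the leading hepatic member in mice, had 5686, 9383, 9122 and 7333 CPM in 1-PFOS livers, against 3652, 3232, 3263 and 2620.4 CPM in untreated livers. The groups were apart, with 1-PFOS replicate 1 lowest of the treated mice (log2 fold change 1.30 ± 0.15 (SE), adjusted p = 9.1e-06). Cyp3a16, Cyp3a41a and Cyp3a44, close relatives that are female-biased in adult mice, rose by 1.40, 1.26 and 1.29. Cyp3a25, a less similar gene, had 545, 914, 785 and 594 CPM in 1-PFOS livers, against 348, 503, 427 and 448 CPM in untreated livers (log2 fold change 0.72 ± 0.16 (SE), adjusted p = 0.0138). Cyp3a13, which is more abundant in gut, had 174, 227, 248 and 187 CPM in 1-PFOS livers, against 158, 165, 156 and 160.0 CPM in untreated livers and was not called (adjusted p = 0.21). Reads of Cyp3a11, Cyp3a16, Cyp3a41a and Cyp3a44, like those of Cyp3a25, Cyp3a57 and Cyp3a59, may be shared among these copies, so the 8 calls are not 8 independent ones. Over the fits without 1 mouse, 6 to 8 of these genes and 7 to 8 of the Cyp2c genes were called, and calls were lost for Cyp3a25 (without 1-PFOS replicates 2 or 3 or untreated replicate 1, adjusted p up to 0.0713) and Cyp3a59 (without 1-PFOS replicates 2 or 3 or untreated replicate 1, adjusted p up to 0.0612). Cyp2c37, Cyp2c50, Cyp2c54, Cyp3a25, Cyp3a57 and Cyp3a59 were not called in the fit of the 8 livers alone. Of 20 genes of the Cyp2a, Cyp2d, Cyp2e, Cyp2f, Cyp2j and Cyp2u families none was called (7 higher and 1 lower at an unadjusted p below 0.05, and 2 higher by DESeq2), with a median of 0.21.

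Enzymes that act after the P450s rose in part. Of 13 carboxylesterases, which cleave esters of drugs and lipids, 4 rose (median 0.42). Ces2c had 39.4, 48.7, 93.5 and 46.8 CPM in 1-PFOS livers, against 25.01, 11.01, 18.7 and 13.6 CPM in untreated livers, and 1-PFOS replicate 3 stood highest (log2 fold change 1.74 ± 0.25 (SE), adjusted p = 1.8e-04). Ces2a had 507, 519, 557 and 530.1 CPM in 1-PFOS livers, against 220.3, 282, 308 and 291 CPM in untreated livers, a narrow spread in both groups (log2 fold change 0.94 ± 0.11 (SE), adjusted p = 1.6e-05). Of 21 glutathione S-transferases, which attach glutathione to reactive compounds, 6 rose (median 0.49). Gstm3 had 310.4, 477, 650.2 and 234 CPM in 1-PFOS livers, against 136, 188, 115 and 159 CPM in untreated livers (log2 fold change 1.48 ± 0.29 (SE), adjusted p = 0.00516). Gstt3 had 149, 150.3, 294 and 147 CPM in 1-PFOS livers, against 86.4, 99.9, 92.2 and 133 CPM in untreated livers, with 1-PFOS replicate 3 apart from the other treated mice (log2 fold change 0.85 ± 0.21 (SE), adjusted p = 0.0307). Of 19 genes of glucuronidation, the UDP-glucuronosyltransferases and 2 enzymes that make their sugar donor, 4 rose (median 0.31). Ugt1a9, which conjugates phenols, had 41.8, 85.95, 86.5 and 48.2 CPM in 1-PFOS livers, against 28.6, 42.1, 33.9 and 42.3 CPM in untreated livers (log2 fold change 0.84 ± 0.20 (SE), adjusted p = 0.0233), and Ugdh, which makes UDP-glucuronic acid, rose by 0.66 ± 0.16. Of 13 sulfotransferases none was called by edgeR's quasi-likelihood test, 1 was lower by DESeq2 and 1 was lower at an unadjusted p below 0.05. Over the fits without 1 mouse, 3 to 5 carboxylesterases, 2 to 7 glutathione S-transferases and 0 to 4 glucuronidation genes were called. Among the genes named, calls were lost for Gstt3 (without 1-PFOS replicate 3 or untreated replicates 1, 2 or 3, adjusted p up to 0.20), Ugt1a9 (without 1-PFOS replicates 2 or 3 or untreated replicates 1 or 3, adjusted p up to 0.13) and Ugdh (without 1-PFOS replicates 2 or 3 or untreated replicates 2, 3 or 4, adjusted p up to 0.16), and all 3 were lost in the fit of the 8 livers alone.

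Other detoxifying enzymes also rose. Ephx1, the microsomal epoxide hydrolase and a known CAR target, had 542, 516, 518 and 489 CPM in 1-PFOS livers, against 204, 382, 233 and 241 CPM in untreated livers (log2 fold change 0.96 ± 0.15 (SE), adjusted p = 3.7e-04). Ephx2, which turns fatty acid epoxides into diols and is a PPARα target, had 727, 821, 909.9 and 688 CPM in 1-PFOS livers, against 346, 543, 489 and 449 CPM in untreated livers (log2 fold change 0.78 ± 0.12 (SE), adjusted p = 5.3e-04). Neither gene overlapped between the groups. Of 22 aldehyde dehydrogenases and aldo-keto reductases 5 rose. Aldh3a2, the fatty aldehyde dehydrogenase, averaged 733 ± 136 CPM in 1-PFOS livers and 379 ± 41.98 CPM in untreated livers (SD, n = 4 each; log2 fold change 0.95 ± 0.15 (SE), adjusted p = 4.1e-04). Aldh1a7 averaged 688 ± 157 CPM in 1-PFOS livers and 321 ± 55.96 CPM in untreated livers (SD, n = 4 each; log2 fold change 1.10 ± 0.17 (SE), adjusted p = 4.1e-04). The retinoic acid hydroxylase Cyp26a1 had 24.7, 15.3, 40.9 and 35.8 CPM in 1-PFOS livers, against 3.93, 7.65, 9.24 and 10.2 CPM in untreated livers and rose by 1.91 ± 0.48 (adjusted p = 0.0356), and Rdh5, a retinol dehydrogenase, fell by 0.69 on the log2 scale (SE 0.18, adjusted p = 0.0317). Fmo5, a flavin monooxygenase, had 433, 557, 921 and 470.5 CPM in 1-PFOS livers, against 266, 241, 275 and 328 CPM in untreated livers, with 1-PFOS replicate 3 highest. Por, the reductase that feeds electrons to P450s, and Alas1, which starts heme synthesis, had log2 fold changes of 0.80 and 1.03 and were not called (adjusted p = 0.060 and 0.20). Single mice decided the call of Cyp26a1 (without 1-PFOS replicates 3 or 4 or untreated replicates 1, 2, 3 or 4, adjusted p up to 0.14), Fmo5 (without 1-PFOS replicate 3, adjusted p up to 0.0742) and Rdh5 (without 1-PFOS replicates 1 or 2 or untreated replicates 1, 3 or 4, adjusted p up to 0.12), and the fit of the 8 livers alone did not call Fmo5, Rdh5 or Ephx2.

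Some export pumps rose. Of 14 ABC exporters Abcc3, Abcc4 and Abcg2 rose. Abcc3, which moves glucuronides from the hepatocyte to the blood, had 501, 467, 484 and 387 CPM in 1-PFOS livers, against 245, 273, 278 and 249 CPM in untreated livers (log2 fold change 0.82 ± 0.11 (SE), adjusted p = 1.3e-04). Abcc4, another basolateral pump, had 15.3, 12.4, 25.7 and 11.1 CPM in 1-PFOS livers, against 4.47, 6.98, 6.37 and 9.59 CPM in untreated livers and 1-PFOS replicate 3 again stood highest (log2 fold change 1.23 ± 0.27 (SE), adjusted p = 0.0132). Abcg2, a canalicular pump, rose by 0.88 ± 0.15. None of 11 Slco and Slc10 uptake carriers was called, nor at an unadjusted p below 0.05 or by DESeq2, and of 12 Slc22 transporters Slc22a7, an organic anion carrier, fell (log2 fold change -1.70 ± 0.44 (SE), adjusted p = 0.0432). Of 23 NRF2 targets only Gstm3, Ugdh and Abcc4, also counted in other lists, were called by edgeR's quasi-likelihood test. Of the 23, 21 had positive log2 fold changes (median 0.29). At an unadjusted p below 0.05, 12 were higher and none lower, and DESeq2 called 5 higher. Nqo1, the usual reporter of NRF2, was not called (log2 fold change 0.53, adjusted p = 0.14). Fits without 1 mouse lost the call of Abcc4 (without 1-PFOS replicate 3 or untreated replicates 1 or 3, adjusted p up to 0.10) and Slc22a7 (without 1-PFOS replicates 1, 2 or 3 or untreated replicates 1 or 3, adjusted p up to 0.26), as did the fit of the 8 livers alone.

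Proteasome subunits, which degrade proteins tagged with ubiquitin, were all above 0 in log2 fold change, and 8 of 25 were called (median 0.32). Psmd4, a ubiquitin receptor of the regulatory particle, averaged 81.9 ± 5.003 CPM in 1-PFOS livers and 55.5 ± 8.74 CPM in untreated livers (SD, n = 4 each), and its log2 fold change of 0.56 ± 0.10 had an adjusted p of 0.00373. Psmb5, a catalytic subunit, rose by 0.58 ± 0.11. The summed level of the 25 genes was 1738 to 1909 CPM in 1-PFOS livers, against 1264 to 1510.3 CPM in untreated livers, so that the groups did not overlap. Over the fits without 1 mouse 4 to 11 members were called, and in a fit of only the 8 livers none was. The mitochondrial chaperones Hspd1 and Hspe1 rose too. Hspd1 had 443, 398, 483 and 436 CPM in 1-PFOS livers, against 333, 301, 300.2 and 286 CPM in untreated livers (log2 fold change 0.53 ± 0.10 (SE), adjusted p = 0.00488). The 24 genes of the unfolded protein response in the endoplasmic reticulum had none called (none at an unadjusted p below 0.05 and none by DESeq2). Of 28 subunits of oxidative phosphorylation none was called by edgeR's quasi-likelihood test, 7 were higher at an unadjusted p below 0.05 and DESeq2 called 3 higher (median 0.07). Leaving out 1 mouse ended the call of Hspe1 (without 1-PFOS replicates 1 or 3 or untreated replicates 1, 3 or 4, adjusted p up to 0.17), and the fit of the 8 livers alone called neither Hspe1 nor Hspd1.

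Several of the 15 largest rises belong to none of these pathways. Krt23, a keratin of epithelial cells that is low in healthy liver, had 14.7, 8.04, 21.4 and 11.5 CPM in 1-PFOS livers, against 0.745, 3.03, 2.01 and 3.22 CPM in untreated livers (log2 fold change 2.61 ± 0.40 (SE), adjusted p = 3.9e-04). Slc39a5, a zinc carrier, had 18.01, 9.68, 16.3 and 8.55 CPM in 1-PFOS livers, against 2.57, 4.18, 3.04 and 2.65 CPM in untreated livers (log2 fold change 2.07 ± 0.31 (SE), adjusted p = 2.7e-04) and was the single member called of 20 iron, zinc and metallothionein genes. Smpd3, a neutral sphingomyelinase, had 3.94, 3.497, 6.58 and 7.61 CPM in 1-PFOS livers, against 0.8696, 0.776, 2.22 and 1.72 CPM in untreated livers (log2 fold change 1.95 ± 0.37 (SE), adjusted p = 0.00424). In all 3 genes the lowest treated mouse lay above the highest untreated mouse. Alas2, the red cell form of the first heme enzyme, had 18.4, 20.2, 26.7 and 13.8 CPM in 1-PFOS livers, against 13.002, 8.497, 10.04 and 8.51 CPM in untreated livers (log2 fold change 0.98 ± 0.19 (SE), adjusted p = 0.00577), whereas the summed level of the red cell markers was 423 to 678 CPM in 1-PFOS livers, against 365 to 739 CPM in untreated livers and overlapped. Of the 223 genes that rose, 127 are in none of the 64 lists.

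**Figure D2:**
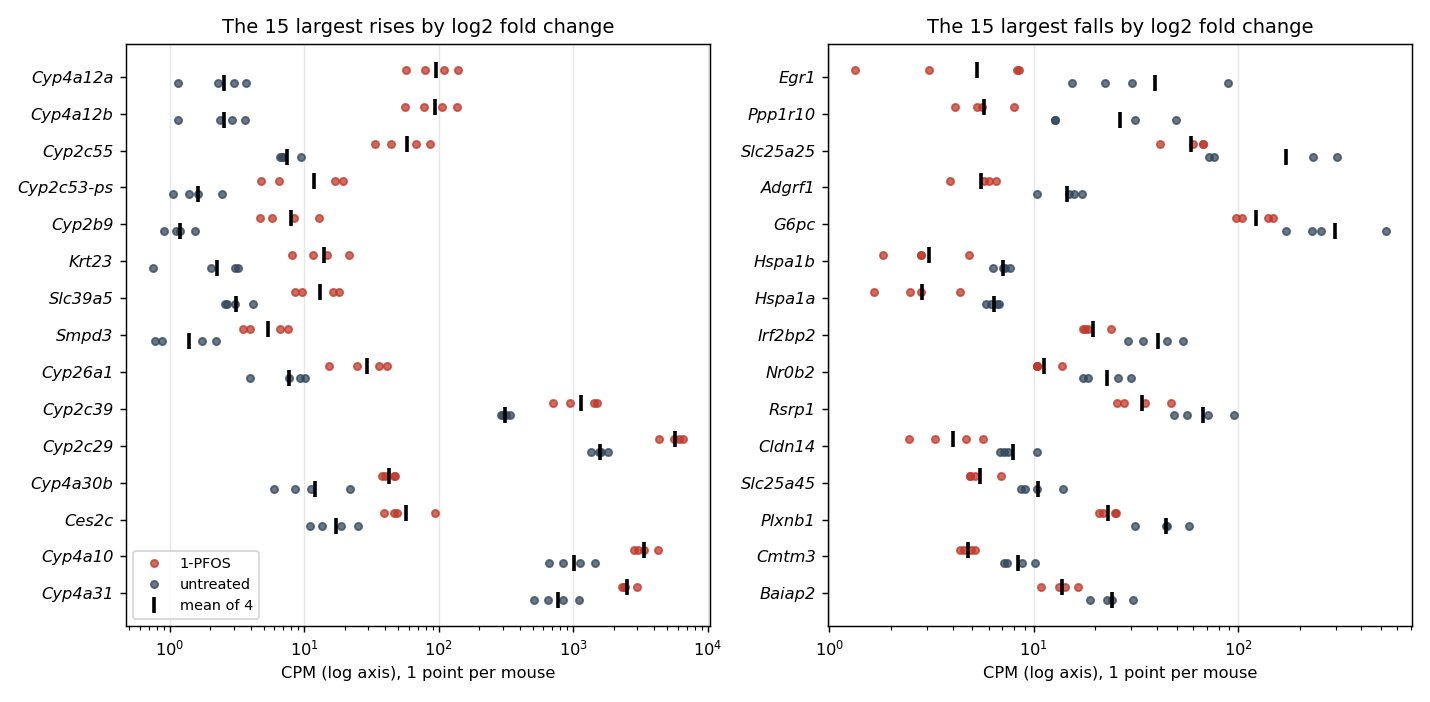
CPM of each mouse (log axis, 1 point per mouse, 1-PFOS above untreated in each gene, bar at the mean of 4) for the 15 largest called rises and falls by log2 fold change whose groups do not overlap and whose higher mean is 5 CPM or more. The gap is widest for Cyp4a12a and Cyp4a12b, at log2 fold changes of 5.25 and 5.22, and among the falls Egr1 shows the widest spread in both groups.

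Among called genes without overlap between the groups, with a mean of 5 CPM or more in the higher group and predicted genes left out, the 15 largest falls had log2 fold changes of -0.81 to -2.88, and the 15 largest rises had 1.70 (Cyp4a31) to 5.25 (Cyp4a12a). Egr1, an immediate early transcription factor that responds within minutes to stress and growth factors, had 8.295, 3.07, 1.33 and 8.42 CPM in 1-PFOS livers, against 89.3, 30.1, 15.3 and 22.2 CPM in untreated livers. Each treated mouse was below each untreated mouse, but the spread within both groups was wide (log2 fold change -2.88 ± 0.76 (SE), adjusted p = 0.0453). It was the single member called of 21 tested immediate early genes, which had a median of -0.58, with 6 lower and 1 higher at an unadjusted p below 0.05 and 1 called higher by DESeq2. Ppp1r10, a nuclear regulator of protein phosphatase 1, had 7.98, 5.27, 4.11 and 5.57 CPM in 1-PFOS livers, against 12.7, 12.7, 31.1 and 49.4 CPM in untreated livers (log2 fold change -2.20 ± 0.38 (SE), adjusted p = 0.00159). Slc25a25, a mitochondrial ATP and phosphate carrier, had 59.97, 66.9, 67.5 and 41.2 CPM in 1-PFOS livers, against 76.2, 71.7, 231 and 302 CPM in untreated livers, with untreated replicates 3 and 4 far above the other mice (log2 fold change -1.53 ± 0.36 (SE), adjusted p = 0.0244). Irf2bp2, a transcriptional corepressor, had 23.9, 17.4, 17.8 and 18.4 CPM in 1-PFOS livers, against 53.4, 34.3, 28.8 and 44.8 CPM in untreated livers (log2 fold change -1.06 ± 0.18 (SE), adjusted p = 9.9e-04). Rsrp1, a protein with arginine and serine repeats, had 34.9, 25.6, 27.7 and 47.03 CPM in 1-PFOS livers, against 56.1, 48.5, 70.7 and 94.8 CPM in untreated livers (log2 fold change -0.997 ± 0.25 (SE), adjusted p = 0.0322). Ppp1r10, Irf2bp2 and Rsrp1 were the 3 members called of 29 tested genes of SR proteins, Clk kinases and nuclear RNA, and all 3 fell. Leaving out 1 mouse ended the call of Egr1 (without 1-PFOS replicates 2 or 3 or untreated replicates 1 or 4, adjusted p up to 0.17), Slc25a25 (without 1-PFOS replicates 3 or 4 or untreated replicates 3 or 4, adjusted p up to 0.13) and Rsrp1 (without 1-PFOS replicates 2 or 3 or untreated replicates 3 or 4, adjusted p up to 0.14), and all 3 calls were lost in the fit of the 8 livers alone.

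Glucose output genes fell in part. G6pc, the last enzyme of glucose release, had 104, 139, 148 and 97.02 CPM in 1-PFOS livers, against 172, 228, 255 and 527 CPM in untreated livers, and untreated replicate 4 stood highest (log2 fold change -1.27 ± 0.30 (SE), adjusted p = 0.0248). Igfbp1, a binding protein for insulin-like growth factors that insulin represses, fell by 1.27 on the log2 scale (SE 0.31, adjusted p = 0.0474). With Slc25a25 these were the 3 of 26 genes of this list that were called, and Pck1, the other control point of gluconeogenesis, was not, with a log2 fold change of -0.18 (adjusted p = 0.90). Bile acid genes gave 1 rise, Acox2, and 1 fall, Nr0b2 (SHP), the repressor that FXR induces when bile acids are high. Nr0b2 had 10.3, 10.4, 10.4 and 13.7 CPM in 1-PFOS livers, against 25.8, 17.4, 30.03 and 18.4 CPM in untreated livers (log2 fold change -1.03 ± 0.24 (SE), adjusted p = 0.0216), and 3 of the treated mice were nearly equal. Cyp7a1, the rate-limiting enzyme of bile acid synthesis, had 61.4, 51.3, 33.1 and 31.5 CPM in 1-PFOS livers, against 175, 96.4, 127 and 126 CPM in untreated livers. Its groups did not overlap, but it was not called (log2 fold change -1.56 ± 0.45, adjusted p = 0.066). The cytosolic heat shock genes Hspa1a and Hspa1b, near-identical copies, fell while the mitochondrial chaperones rose. Hspa1a had 4.35, 2.49, 1.65 and 2.79 CPM in 1-PFOS livers, against 6.75, 6.204, 6.61 and 5.84 CPM in untreated livers (log2 fold change -1.16 ± 0.23 (SE), adjusted p = 0.00577). Single mice decided the call of G6pc (without 1-PFOS replicate 4 or untreated replicate 4, adjusted p up to 0.14), Igfbp1 (without 1-PFOS replicates 1, 2 or 3 or untreated replicates 1, 3 or 4, adjusted p up to 0.18), Nr0b2 (without 1-PFOS replicates 2 or 3 or untreated replicates 1 or 3, adjusted p up to 0.0865) and Acox2 (without 1-PFOS replicate 3 or untreated replicates 3 or 4, adjusted p up to 0.11), and the fit of the 8 livers alone did not call G6pc, Igfbp1, Acox2, Hspa1a or Hspa1b.

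Few genes for secreted proteins were called, while the medians of the lists below were negative. Ahsg, the abundant plasma protein fetuin-A, had 2916, 2207, 2632 and 4278 CPM in 1-PFOS livers, against 5753, 4764, 4841 and 5234 CPM in untreated livers (log2 fold change -0.77 ± 0.16 (SE), adjusted p = 0.00859). Apof, which regulates lipid transfer between lipoproteins, had 270.1, 234, 244 and 282 CPM in 1-PFOS livers, against 421, 367, 372 and 371 CPM in untreated livers (log2 fold change -0.57 ± 0.10 (SE), adjusted p = 0.00111). Apom, a carrier of sphingosine 1-phosphate, had 105, 75.3, 75.1 and 138 CPM in 1-PFOS livers, against 159.8, 170.2, 148 and 156 CPM in untreated livers (log2 fold change -0.69 ± 0.18 (SE), adjusted p = 0.0453), and 1-PFOS replicates 2 and 3 were lowest in all 3 genes. Apof and Apom were the 2 of 13 tested apolipoprotein genes called, and Apoa1 and the others were not. Of the 13, 1 had a positive log2 fold change and 5 were lower at an unadjusted p below 0.05 (median -0.25). Among 34 tested complement and coagulation genes only Cfi, the protease that inactivates C3b and C4b, was called by edgeR's quasi-likelihood test, while 16 were lower at an unadjusted p below 0.05 and DESeq2 called 6 lower. Cfi had 423, 399, 342 and 408 CPM in 1-PFOS livers, against 547, 517, 533 and 569 CPM in untreated livers (log2 fold change -0.46 ± 0.09 (SE), adjusted p = 0.00518), and the median of that list was -0.25. None of 23 tested acute phase proteins was called by edgeR's quasi-likelihood test, 4 were lower at an unadjusted p below 0.05 and DESeq2 called 1 lower (median -0.36). Fits without 1 mouse lost the call of Ahsg (without 1-PFOS replicate 3, adjusted p up to 0.0538) and Apom (without 1-PFOS replicates 2 or 3 or untreated replicates 1, 2, 3 or 4, adjusted p up to 0.20), and the fit of the 8 livers alone did not call Ahsg, Apof, Apom or Cfi.

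Interferon response genes were lower in treated mice without passing the test gene by gene. All 27 tested members had negative log2 fold changes, with a median of -0.77 against -0.02 over all genes, and none was called by edgeR's quasi-likelihood test. Of these, 21 were lower at an unadjusted p below 0.05 (share over all genes not given), 4 were called lower by DESeq2, and 6 were called lower in a fit of only the 8 livers. Their summed level was 338 to 379 CPM in 1-PFOS livers, against 469 to 614 CPM in untreated livers, which did not overlap. Gbp3, a guanylate-binding protein of this list that was chosen after its values were seen, had 3.21, 4.04, 4.42 and 4.54 CPM in 1-PFOS livers, against 11.9, 9.05, 9.34 and 8.33 CPM in untreated livers (log2 fold change -1.25 ± 0.36, adjusted p = 0.065). Of 18 genes of MHC class I presentation and the immunoproteasome 1 was called, H2-Q7, which fell (log2 fold change -0.50 ± 0.13 (SE), adjusted p = 0.0427), 13 were lower at an unadjusted p below 0.05 and the median was -0.37. Of the 8 fits without 1 mouse, 5 lost the call of H2-Q7 (without 1-PFOS replicates 2 or 3 or untreated replicates 2, 3 or 4, adjusted p up to 0.15), as did the fit of the 8 livers alone. Kupffer cell and macrophage markers summed to 380.1 to 523 CPM in 1-PFOS livers, against 424 to 634 CPM in untreated livers and overlapped, and their part in this result was not tested.

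**Figure D3:**
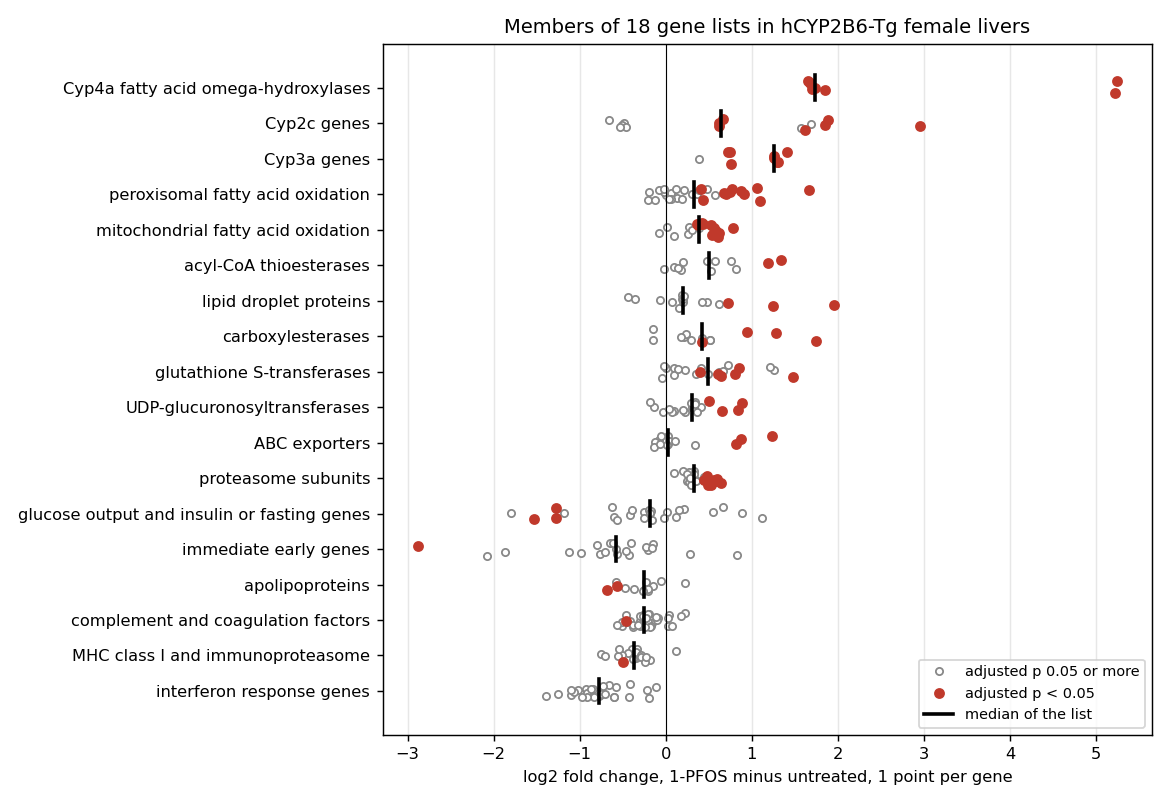
Log2 fold change (1-PFOS minus untreated, horizontal axis) of each tested member of 18 gene lists in hCYP2B6-Tg female livers, filled red where the adjusted p is below 0.05 and open otherwise, with a bar at the median of the list. All 7 Cyp4a genes are filled and right of 0, all 25 proteasome genes are right of 0 with 8 filled, and all 27 interferon response genes are left of 0 with none filled.

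Few sex-biased genes were called. Of 27 tested female-biased genes 6 rose by edgeR's quasi-likelihood test, namely Cyp2b9, Cyp2b13, Cyp3a16, Cyp3a41a, Cyp3a41b and Cyp3a44, and Adgrf1 fell. Cyp2b9 and Cyp2b13 are among the deleted genes, and where their reads come from was not tested. At an unadjusted p below 0.05, 6 were higher and 8 lower, and the fit of the 8 livers alone called 5 higher and 3 lower. Adgrf1, an adhesion receptor that is female-biased in mouse liver, had 6.53, 6.02, 5.69 and 3.87 CPM in 1-PFOS livers, against 15.7, 10.3, 14.9 and 17.2 CPM in untreated livers (log2 fold change -1.39 ± 0.33 (SE), adjusted p = 0.02396). Of 27 tested male-biased genes only Cyp4a12a and Cyp4a12b rose and none fell by edgeR's quasi-likelihood test, while 8 were higher and 1 was lower at an unadjusted p below 0.05 and DESeq2 called 5 higher. The medians of the lists were -0.27 and -0.12, and the 19 genes for major urinary proteins had none called, also none at an unadjusted p below 0.05 or by DESeq2, with summed levels of 27232 to 57474 CPM in 1-PFOS livers, against 12141 to 125199 CPM in untreated livers. The remaining large falls were the claudin Cldn14 (log2 fold change -0.98 ± 0.26 (SE), adjusted p = 0.04304), the mitochondrial carrier Slc25a45 (log2 fold change -0.94 ± 0.18 (SE), adjusted p = 0.00422), the semaphorin receptor Plxnb1 (log2 fold change -0.94 ± 0.14 (SE), adjusted p = 2.4e-04), Cmtm3 (log2 fold change -0.82 ± 0.22 (SE), adjusted p = 0.04496) and the actin regulator Baiap2 (log2 fold change -0.81 ± 0.16 (SE), adjusted p = 0.00671). Leaving out 1 mouse ended the call of Adgrf1 (without 1-PFOS replicates 3 or 4 or untreated replicates 1, 3 or 4, adjusted p up to 0.0831), Cldn14 (without 1-PFOS replicates 2 or 3 or untreated replicates 1, 3 or 4, adjusted p up to 0.17) and Cmtm3 (without 1-PFOS replicates 2, 3 or 4 or untreated replicates 1, 2, 3 or 4, adjusted p up to 0.15), and the fit of the 8 livers alone did not call Cldn14, Slc25a45 or Baiap2.

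The 4 treated mice were not alike. In 112 of the 223 genes that rose (50.2%), 1-PFOS replicates 2 and 3 both lay above replicates 1 and 4, which was so for 26.3% of all tested genes, and in 39 of the 77 genes that fell (50.6%) both lay below replicates 1 and 4, against 26.8% of all tested genes. Only this pair was counted, and no rule set beforehand chose it. The genes were called with these same mice, so the counts only describe the order of the mice. Cyp2c39, Cyp3a11 and Ahsg above show this order. It was not general, since Acot1, Ephx1 and Slc39a5 were highest in 1-PFOS replicate 1.

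The same genotype and sex at 10 mg/kg/day was measured too, and the fold changes of both doses share the untreated mice. Between the doses 19.1% of the 13193 genes were called higher and 19% lower at 10-PFOS than at 1-PFOS. Of the 223 genes that rose at 1-PFOS, 148 were called further from untreated at 10-PFOS and 13 back toward it, and of the 77 that fell 30 were called further and 13 back, where both comparisons share the 1-PFOS mice. Cyp4a12a averaged 2.53 ± 1.08 CPM untreated, 95.9 ± 35.7 CPM at 1-PFOS and 845 ± 42.7 CPM at 10-PFOS (SD, n = 4 each, as for the means that follow). Cyp2c55 averaged 7.46 ± 1.33 CPM untreated, 57.8 ± 23.5 CPM at 1-PFOS and 451 ± 136 CPM at 10-PFOS. Ehhadh averaged 479.7 ± 120.2 CPM untreated, 1517 ± 342 CPM at 1-PFOS and 7485 ± 722 CPM at 10-PFOS. In these genes each 10-PFOS mouse was above each 1-PFOS mouse (log2 fold change 3.14 ± 0.29 for 10-PFOS over 1-PFOS, adjusted p = 5.9e-08 in Cyp4a12a, and log2 fold change 2.30 ± 0.20 for 10-PFOS over 1-PFOS, adjusted p = 2.5e-08 in Ehhadh). Cyp2c29 averaged 1576 ± 182 CPM untreated, 5659.7 ± 984 CPM at 1-PFOS and 9659 ± 595 CPM at 10-PFOS, and Cyp3a11 averaged 3192 ± 426 CPM untreated, 7881 ± 1724 CPM at 1-PFOS and 20765 ± 1995 CPM at 10-PFOS. Gstm3 averaged 149.5 ± 31.4 CPM untreated, 418 ± 185 CPM at 1-PFOS and 5469 ± 1574 CPM at 10-PFOS. Alas2 averaged 10.01 ± 2.12 CPM untreated, 19.8 ± 5.36 CPM at 1-PFOS and 10.4 ± 1.36 CPM at 10-PFOS, so that the highest mean was at the low dose (log2 fold change -0.92 ± 0.19 for 10-PFOS over 1-PFOS, adjusted p = 7.0e-04). Serpine2, a protease inhibitor chosen after its values were seen, averaged 1.37 ± 0.149 CPM untreated, 4.25 ± 2.24 CPM at 1-PFOS and 0.936 ± 0.439 CPM at 10-PFOS (log2 fold change -2.18 ± 0.35 for 10-PFOS over 1-PFOS, adjusted p = 5.2e-05). At 1-PFOS the call was lost for Serpine2 (without 1-PFOS replicate 2, adjusted p up to 0.0607). Among the falls, Ahsg averaged 5148 ± 453 CPM untreated, 3008 ± 895 CPM at 1-PFOS and 1712 ± 195 CPM at 10-PFOS (log2 fold change -0.81 ± 0.16 for 10-PFOS over 1-PFOS, adjusted p = 4.1e-04). Egr1 averaged 39.2 ± 33.9 CPM untreated, 5.28 ± 3.62 CPM at 1-PFOS and 2.68 ± 2.098 CPM at 10-PFOS, and its doses overlapped. G6pc averaged 295 ± 158 CPM untreated, 122 ± 25.2 CPM at 1-PFOS and 187 ± 54.2 CPM at 10-PFOS (log2 fold change 0.62 ± 0.30 for 10-PFOS over 1-PFOS, adjusted p = 0.11), and Nr0b2 averaged 22.9 ± 6.04 CPM untreated, 11.2 ± 1.66 CPM at 1-PFOS and 15.4 ± 3.07 CPM at 10-PFOS (log2 fold change 0.46 ± 0.24 for 10-PFOS over 1-PFOS, adjusted p = 0.13), with higher means at 10-PFOS than at 1-PFOS.

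**Figure D4:**
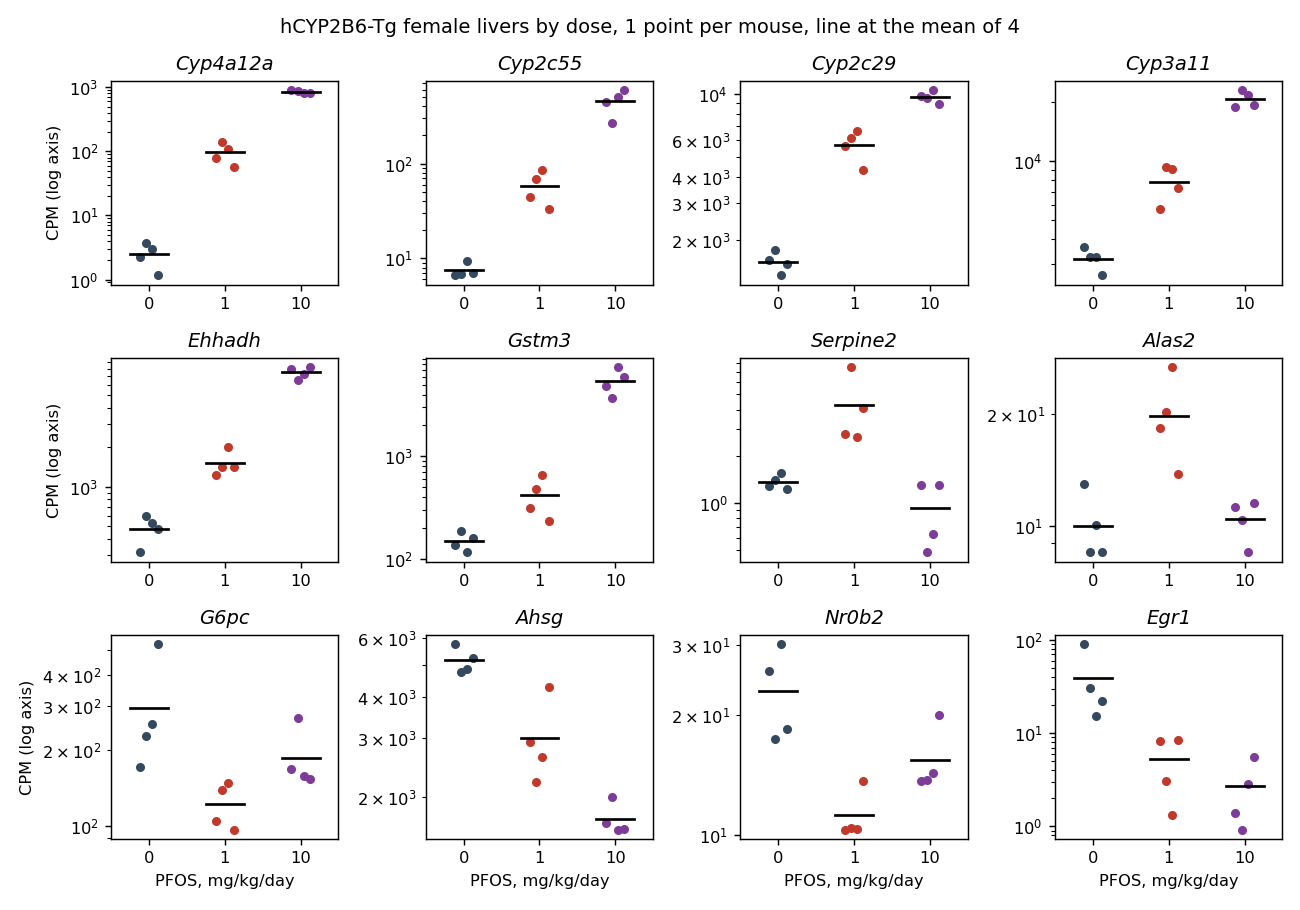
CPM (log axis) of 12 genes in each hCYP2B6-Tg female at 0, 1 and 10 mg/kg/day PFOS, 1 point per mouse with a line at the mean of 4. P450 genes, Ehhadh and Gstm3 step up at each dose, Ahsg and Egr1 are lowest at 10 mg/kg/day by mean, and Serpine2 and Alas2 are highest at 1 mg/kg/day.

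Cyp2b-null females at the same doses share no mouse with these groups. The medians of their clock genes moved further at 1-PFOS, as given above, and the part of this in the comparison was not tested. There 57 genes (0.432%) rose and 35 genes (0.265%) fell at 1-PFOS. Of the rises 45 were shared, 20.2% of the 223 and 78.9% of the 57, and of the falls 8 were shared, 10.4% of the 77 and 22.9% of the 35. Over the 223 genes that rose in hCYP2B6-Tg females the median log2 fold change was 0.38 in Cyp2b-null females, 217 of them with the same sign, and over the 77 that fell it was -0.46, 68 with the same sign. Those genes were chosen by their values in hCYP2B6-Tg females, so that smaller medians elsewhere are no sign of a genotype difference. The difference itself, tested as the response of hCYP2B6-Tg minus that of Cyp2b-null females, was called for none of the 13193 genes (0%; lowest adjusted p 0.66), none by DESeq2 and 1 by edgeR's likelihood ratio test, while 524 genes (3.97%) had an unadjusted p below 0.05. Aox1, an aldehyde oxidase of drug metabolism chosen after its values were seen, was among the 10 genes with the lowest p of this test. It had 94.4, 88.1, 87.3 and 57.0 CPM in 1-PFOS hCYP2B6-Tg livers, against 42.9, 36.2, 25.8 and 28.3 CPM in untreated ones (log2 fold change 1.30, adjusted p = 0.00013). In Cyp2b-null livers its mean was 55.6 CPM at 1-PFOS (46.3 to 67.8) and 49.6 CPM untreated (41.5 to 54.99), with a log2 fold change of 0.16 (adjusted p = 0.69), and the difference of the responses was 1.13 ± 0.25 (SE), adjusted p = 0.66. Ephx1 had a log2 fold change of 0.96 in hCYP2B6-Tg females and 0.16 (adjusted p = 0.64) in Cyp2b-null females (difference 0.81 ± 0.21 (SE), adjusted p = 1.00). Cyp4a12a had 4.01 (adjusted p = 3.1e-08) and Cyp2c29 had 1.54 (adjusted p = 9.5e-08) in Cyp2b-null females, so both rose in each genotype.

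In male hCYP2B6-Tg mice at the same dose, of 13271 genes tested with both sexes in 1 fit, 893 (6.73%) rose and 630 (4.75%) fell. Of the rises 171 were shared, 76.7% of the female and 19.1% of the male list, and of the falls 30 were shared, 39.0% of the female and 4.76% of the male list. The median log2 fold change in males was 0.57 over the 223 genes that rose in females and -0.33 over the 77 that fell, with the same sign in 220 and 69 of them. The medians of the clock genes moved further in males, as given above, and the part of this in the comparison was not tested. The response differed between the sexes for 32 genes, 19 higher in females (0.143%) and 13 lower (0.098%), and in 26 of the 32 the signs were opposite. Only 7 of the 32 were called in females, and choosing genes by a large difference favours opposite signs. Some of these signs rest on values near 0, as for Cpeb4 (log2 fold change 0.0007 in females and -0.97 in males). In fits without 1 mouse 10 to 51 genes differed, the fewest without untreated female replicate 3, where the calls of Themis (difference -3.14) and Gstp-ps were lost. In a fit of only the 4 groups contrasted 8 genes differed, 4 of them among the 32, and neither Gstp1 nor Themis was called. Cyp4a12a had 85.97 ± 32.4 CPM in 1-PFOS females, 2.24 ± 0.959 CPM in untreated females, 1178 ± 144 CPM in 1-PFOS males and 342 ± 81.2 CPM in untreated males. Untreated females thus held far less of it than untreated males, and its log2 fold change was 5.26 in females and 1.79 in males (difference 3.47 ± 0.34 (SE), adjusted p = 7.6e-09). Gstp1, a glutathione S-transferase that is male-biased in mouse liver, had 234 ± 39.5 CPM in 1-PFOS females, 147 ± 46.6 CPM in untreated females, 517 ± 65.8 CPM in 1-PFOS males and 996 ± 369.6 CPM in untreated males. The log2 fold change of Gstp1 was 0.67 in females, where it was not called, and -0.95 in males (difference 1.62 ± 0.31 (SE), adjusted p = 0.00809). Ppp1r10, whose large fall in females is given above, had a log2 fold change of -0.09 in males (difference -2.10 ± 0.47 (SE), adjusted p = 0.0293). Themis, a signalling protein best known from T cells, had 0.8102 ± 0.569 CPM in 1-PFOS females, 0.404 ± 0.283 CPM in untreated females, 6.24 ± 1.67 CPM in 1-PFOS males and 0.277 ± 0.125 CPM in untreated males, and was called in males only (difference -3.51 ± 0.69 (SE), adjusted p = 0.0109).

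**Figure D5:**
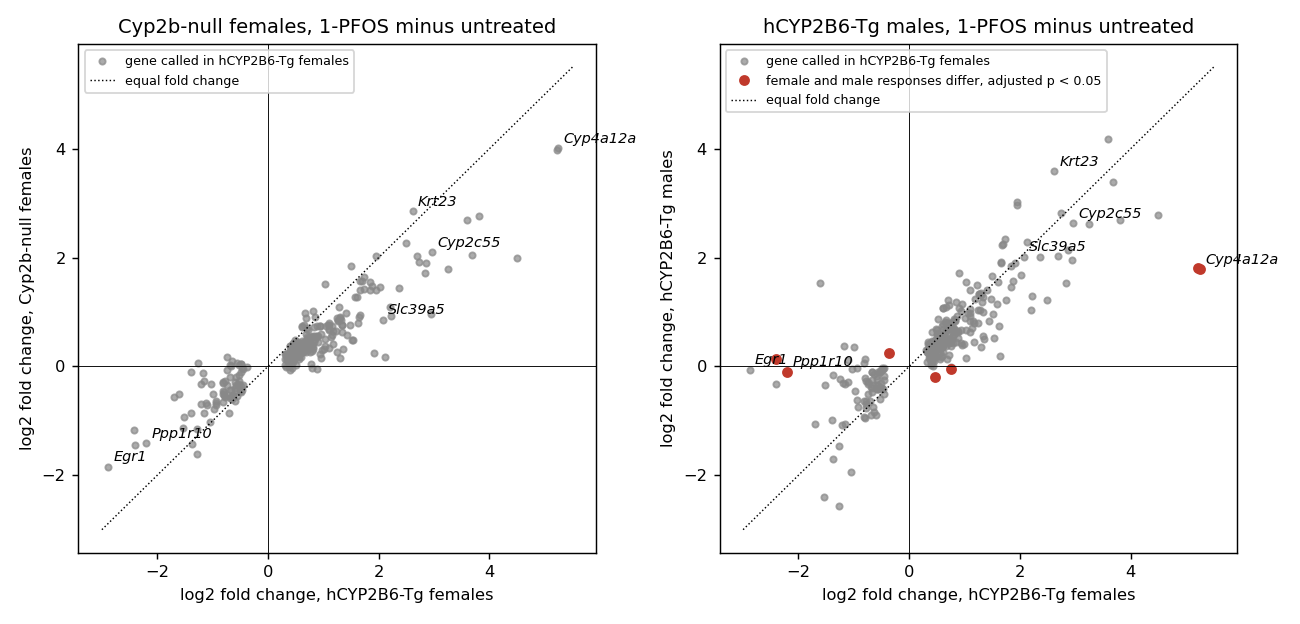
Log2 fold changes (1-PFOS minus untreated) of the 300 genes called in hCYP2B6-Tg females (horizontal axes) against those in Cyp2b-null females (left) and in hCYP2B6-Tg males (right), with a dotted line at equal values and red points where the female and male responses differ at an adjusted p below 0.05. Cyp4a12a lies at 4.01 in Cyp2b-null females and 1.79 in males, and Ppp1r10 at -0.09 in males.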

How the data were processed

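Polyadenylated RNA of 48 mouse livers, 4 in each of 12 groups, was sequenced as read pairs, and the 2 tables of counts, 1 for each sex, were used. The counts per gene were made and deposited by the authors, who per the submitters' processing notes used FastQC, Trim Galore, RSEM and featureCounts on build GRCm39, with edgeR for their own tests. The sources used here give no versions, and no settings for alignment and counting. Of 40872 lines, 25 broken ones were left out, so 6 genes, among them Ttn and Dst, have no value. Of the female counts above 0, 91.1% are even, so 1 count does not stand for 1 molecule. Tables of the authors' comparisons, which hold fold changes and p-values, were not used, nor were 64 columns of values per sample in 8 of those files, since the counts hold those samples.

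Counts were fitted in R 4.3.3 with edgeR 4.0.16 (limma 3.58.1), as TMM-normalised counts of the 24 female libraries in 6 groups, over 13193 genes with more than 1 CPM in at least 3 of the 4 mice of any group. Tests were the quasi-likelihood F test with Benjamini-Hochberg adjustment over all tested genes, and the SE of a log2 fold change is its size divided by the square root of F. CPM were relative to the summed counts of all tested genes of a library, adjusted by its TMM factor. Differences between the sexes came from 1 fit of all 48 libraries, in which CPM and fold changes of females differ slightly. No 2 libraries of a group agreed within sampling noise (lowest chi-square per degree of freedom 37.2). Alternatives used DESeq2 1.42.0, the likelihood ratio test, other filters and scaling, fewer groups, a replicate block and each mouse left out. The tests were checked on simulated data. Figures were drawn with Python 3.11.15 and matplotlib 3.10.9.

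Genes named with values were the 15 largest rises and falls among called genes whose groups did not overlap and whose higher mean was 5 CPM or more, leaving out predicted genes, the 10 with the lowest adjusted p, up to 4 members of each list, all Cyp2b, Cyp2c, Cyp3a, Cyp4a and clock genes, and the 10 with the lowest adjusted p that differed between the sexes. Cpt1a, Fasn, Por, Alas1, Nqo1, Pck1, Cyp7a1, Gbp3, Aox1 and Serpine2 were added after their values were seen. Some list members are counted in their lists but not reported here by name. The samples, the gene lists, the tests and this rule were chosen with earlier results of these data known. Promoter windows are from RefSeq.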

Additional observations from a re-analysis of the deposited data

Results flagged for a closer look

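In 176 groups of 4 mice (a gene or marker sum in 1 group), 14 had a mouse apart from the other 3 by Dixon's measure, the gap to the nearest mouse divided by the range, above the 95% critical value for 4 samples, which chance gives in about 1 of 20 groups. Among treated mice this was replicate 3 in Cyp4a31 (0.840) and Cyp4a32 (0.843), replicate 1 in Irf2bp2 (0.850) and Slc25a45 (0.851), replicate 4 in Nr0b2 (0.978) and replicate 2 in Npas2 (0.891). Among untreated mice it was replicate 1 in Cldn14 (0.831), Npas2 (0.839), Cyp2c40 (0.904), Cyp2c67 (0.905), Cyp2c68 (0.904) and Cyp2c69 (0.917), the last 4 of 1 family that may share reads. It was untreated replicate 3 in Cyp2c55 (0.891) and in the 2 tested T and NK cell markers (0.939).

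The response to 1-PFOS differed between females and males, by the interaction in edgeR's quasi-likelihood test, for 32 genes, of which the 10 with the lowest adjusted p are given. The difference of the log2 fold changes, female minus male, was positive for Cyp4a12a (3.47 ± 0.34 (SE), adjusted p = 7.6e-09), Cyp4a12b (3.42), Nmt2 (0.83), Sowahb (1.496), Slc49a4 (0.86), Gstp1 (1.62) and Gstp-ps (1.61), and negative for Nudt13 (-1.0), Trim24 (-1.23) and Themis (-3.51). Their adjusted p ran from 7.6e-09 to 0.012, but in a fit of only the contrasted groups 7 of the 10 were not called, Cyp4a12a, Cyp4a12b and Sowahb being the exceptions. In females alone Cyp4a12a, Cyp4a12b and Nmt2 were called, and all but Nmt2 were called in males. Nmt2 had 20.6 ± 1.69 CPM in 1-PFOS females, 12.1 ± 1.56 CPM in untreated females, 11.6 ± 1.07 CPM in 1-PFOS males and 12.04 ± 1.07 CPM in untreated males.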

How the results depend on the processing

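The 120 named results kept their direction in all 1992 values under the alternatives, and 220 of these values lost the call. Of 112 called ones 49 kept the call throughout. Past both thresholds 73 rises and 23 falls were called in the fit reported above, and 223 and 77 by the adjusted p alone. By DESeq2 112 and 40, and 432 and 176, were called. By edgeR's likelihood ratio test 108 and 36, and 333 and 154, were called, with 1 gene differing between the genotypes. In a fit of only the contrasted groups 40 rises passed both thresholds, 58 rose and 25 fell. Differences between the sexes numbered 57 by the likelihood ratio test, 58 by DESeq2 and 8 in a fit of only the contrasted groups, against 32. Leaving out 1 mouse at a time gave 46 to 142 rises and 11 to 36 falls past both thresholds, 103 to 339 rises and 22 to 155 falls by the adjusted p, 0 to 3 genes that differed between the genotypes and 10 to 51 that differed between the sexes. Deviations of same-numbered treated and untreated mice correlated at 0.105, -0.0978, 0.0544 and 0.104, so that the numbers were not taken to pair the mice. A fit with the replicate number as a block called 64 rises and 22 falls past both thresholds, 218 and 92 by the adjusted p, 0 genes between the genotypes and 34 between the sexes. Counts halved after seeing that most are even, an alternative chosen after seeing the data, gave 70, 24, 215 and 78. With 4 mice a group, a gene that was not called may still differ.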
